A study of Mus musculus with 159 samples.

Results

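Robo2, Plxna4, Sema6d and Alcam, 4 of the 607 genes in the deposited table, were selected by name as genes of axon guidance and cell adhesion, and their levels were described in 159 tissue segments of 4 mouse livers. In part they were chosen from measured values, since the difference between MarcoHi and MarcoLo regions in Des+ segments had been seen for Plxna4, Robo2 and Alcam. That difference is therefore given below as a description, without a test. The tissue came from C57BL/6 mice, 8 weeks old at the start, and the series' design gives carbon tetrachloride (CCl4) for 6 weeks, which scars the liver, to all of them. The methods state that 2 mice also received MARCO+ bone marrow-derived macrophages (BMDMs) and 2 received saline. The labels give livers 1 and 3 as treated CCl4 with fibrosis and livers 2 and 4 as control and healthy, and nothing links a liver to the transferred cells, so the groups are called here by their labels. Each label is thus represented by 2 mice.

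In each liver, circular regions of interest (ROIs) were chosen by eye as rich (MarcoHi) or poor (MarcoLo) in MARCO, a scavenger receptor of macrophages. Staining then split a ROI into 4 segment types. Des+ segments stained for DESMIN, a marker of hepatic stellate cells (HSCs), the main matrix-producing cells of the fibrotic liver. Marco+IBA+ and Marco-IBA+ segments stained for IBA1, a macrophage protein, with or without MARCO, and Else held the tissue that remained. The table held 41 Des+, 45 Marco+IBA+, 24 Marco-IBA+ and 49 Else segments from 51 ROIs, and liver 2 had no Marco-IBA+ segment in MarcoHi ROIs.

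Axon guidance molecules steer growing nerve fibres and also act on migrating and contacting cells outside the nervous system. Robo2 is a receptor for secreted Slit proteins. Plxna4 is a plexin, a receptor through which semaphorins repel or redirect cells, and Sema6d is a membrane-bound semaphorin that binds class A plexins. Alcam is an adhesion molecule of the immunoglobulin superfamily that binds itself on neighbouring cells and binds CD6 on T cells. Of the partners looked for (Slit1 to Slit3, Robo1, Sema6a, Sema6b, Sema3a, Plxna1, Plxna2, Nrp1, Nrp2, Trem2, Tyrobp, Cd6, L1cam and Srgap1 to Srgap3), 0 were in the table.

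In GRCm38, Sema6d lies on chromosome 2 (124089943 to 124667789), Plxna4 on chromosome 6 (32144543 to 32588192), and Alcam (52248996 to 52453081) and Robo2 (73891976 to 75447443) both lie on chromosome 16. The 250 bases before a start site are shown for Sema6d (the first of its 2 listed starts) and Alcam, because these 2 genes had the most opposed levels of the 4 across segment types. The sequences are from RefSeq (GRCm38.p6) and run 5′ to 3′ on the gene's strand, chr2:124089719-124089968 (+) for Sema6d and chr16:52453082-52453331 (-) for Alcam. Capitals mark matches on either strand to 5 motifs, which were the TATA box with the letters TATAAA, the CCAAT box spelled by its name, the GC box with the letters GGGCGG, the E-box with the letters CACGTG and the core bound by the myeloid factor PU.1 with the letters GAGGAA.
Sema6d: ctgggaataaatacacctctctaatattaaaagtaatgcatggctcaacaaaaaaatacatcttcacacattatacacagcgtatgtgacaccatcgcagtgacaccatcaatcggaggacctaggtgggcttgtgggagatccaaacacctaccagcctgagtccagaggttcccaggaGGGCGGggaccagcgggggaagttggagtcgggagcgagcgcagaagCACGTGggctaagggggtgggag
Alcam: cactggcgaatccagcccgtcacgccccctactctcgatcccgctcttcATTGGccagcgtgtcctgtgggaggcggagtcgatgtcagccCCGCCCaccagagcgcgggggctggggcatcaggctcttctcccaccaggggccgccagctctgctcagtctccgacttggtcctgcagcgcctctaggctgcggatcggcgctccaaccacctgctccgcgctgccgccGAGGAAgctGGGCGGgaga
The Sema6d window held 1 GC box and 1 E-box, and the Alcam window 1 CCAAT, 2 GC boxes and 1 PU.1 core, without overlap between matches. The end of the Sema6d window lies inside the gene's span given above, which begins at 124089943, and the E-box falls past that position. Of the 32851 windows of this length in the RefSeq table, 32.7% held a GC box, 33.8% CCAAT, 23.3% the PU.1 core, 12.4% a TATA box and 6.02% the E-box. These matches are letters in a window and no binding was measured.

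Values were counts divided by the upper quartile (Q3) of each segment, so that the Q3 of the 607 genes was 26.07 everywhere, and differences are relative to those genes. The authors had limited the table to genes found mainly in HSCs, so that levels in Des+ segments were compared within an HSC-weighted set. The counts behind them were recovered and summed to between 1065 and 4457 in Marco-IBA+ segments, 1448 and 16715 in Des+, 3106 and 27341 in Marco+IBA+ and 75571 and 448875 in Else. The lowest count was 1, which cannot be told from an undetected gene, and 1 count was worth a median value of 8.69 in Marco-IBA+, 3.72 in Des+, 1.68 in Marco+IBA+ and 0.0687 in Else segments. Marco followed its stain, with liver means of 169 to 958 in Marco+IBA+ and at most 72.7 in any other type. Of 14 HSC markers, 13 were higher in Des+ than Else segments, where 226 of the 607 genes were higher and 168 lower. Des itself did not pass (adjusted p = 0.055 in limma), with liver means of 5.94 to 10.1 in Des+ and 5.24 to 6.50 in Else. In Marco-IBA+ segments the Des means were 8.01 to 15.0, and Des+ minus Marco-IBA+ was -0.49 on the log2 scale (adjusted p = 0.0246 in limma). All 14 HSC markers were also higher in Marco-IBA+ than Else, where 73.5% of genes passed. Between Des+ and Marco-IBA+ segments, 10 of the 14 were higher in Des+ and 1 was lower, where 111 of the 607 genes were higher and 174 lower. Of the 11 macrophage markers, Marco was the measured one, and 0 hepatocyte, endothelial cell, cholangiocyte, portal fibroblast or Schwann cell markers were in the table, so RNA from those cells could not be followed. The smooth muscle cell markers Tagln and Myl9, the 2 of their list that were measured, were both higher in Des+ than Else segments. Fewer cells of a type in a segment and less RNA per cell cannot be told apart in these data.

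Sema6d was higher in Marco+IBA+ segments than in Des+ or Else segments of every liver. Its mean values in livers 1 to 4 were 29.5, 21.3, 23.1 and 28.2 in Marco+IBA+ segments, against 6.82, 5.91, 8.08 and 5.82 in Else segments, and 16.0, 18.9, 13.7 and 11.3 in Des+ segments. Every Marco+IBA+ liver mean thus lay above every Des+ and Else mean. In Marco-IBA+ segments the means were 27.7, 13.0, 23.8 and 24.6, on a median of 3 counts per segment with 8 of 24 segments at the lowest count, so this type could not be placed above or below Marco+IBA+.

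The log2 difference of Sema6d between Marco+IBA+ and Else was 1.79 ± 0.19 (SE), a 3.46-fold difference, with adjusted p = 6.35e-08 in limma over 607 genes, where 40.2% of all genes passed in either direction. It was higher in 4 of 4 livers and in 43 of the 43 ROIs that held both types. In these Marco+IBA+ segments 7 of 14 HSC markers were also higher than in Else, with a median difference of 0.49, and their part was not tested. Des+ segments lay between. Sema6d was higher in Des+ than Else by 1.05 ± 0.19 on the log2 scale (adjusted p = 4.4e-05, 36 of 41 ROIs), where 64.9% of genes passed, and lower in Des+ than Marco+IBA+ by a log2 difference of -0.74 ± 0.19 (adjusted p = 0.00199), where 52.7% passed. Marco itself differed between Des+ and Else by -0.0048. It was the only macrophage marker measured, and the part of macrophage RNA in the Sema6d values of Des+ segments was not tested. Within ROIs that held both Des+ and Marco+IBA+, the Des+ segment had the lower Sema6d value in 32 of 37. That call was lost in MarcoLo ROIs alone (-0.48, adjusted p = 0.0853). After 1 count was subtracted from every value, the Marco+IBA+ to Else difference was 1.71, the Des+ to Else difference 0.65 and the Des+ to Marco+IBA+ difference -1.05. All 3 missed the threshold with Marco-IBA+ segments in the fit (adjusted p = 0.125, 0.461 and 0.293) and passed it without them (1.32e-05, 0.00624 and 0.000391).

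Alcam ran the other way between these types. Its liver means in Else segments were 20.0, 21.1, 20.8 and 19.2, with every Else segment between 17.3 and 24.4 on 104 to 622 counts. In Marco+IBA+ segments they were 9.43, 12.9, 8.93 and 12.9, without overlap with Else. The log2 difference, Marco+IBA+ minus Else, was -0.84 ± 0.15 (adjusted p = 8.56e-05), and the value was lower in 41 of 43 ROIs and in 4 of 4 livers. Des+ segments had liver means of 14.7, 18.4, 14.2 and 21.9. They exceeded Marco+IBA+ by 0.60 ± 0.15 on the log2 scale (adjusted p = 0.00178, 29 of 37 ROIs). That call was lost after subtracting 1 count (0.44, adjusted p = 0.554, or 0.0268 without Marco-IBA+ segments) and with counts of 1 set to 0 (0.52, adjusted p = 0.639). From Else they differed by -0.24 ± 0.15 (adjusted p = 0.173), where liver 4 went the other way. The Des+ to Else value was -0.61 after subtracting 1 count (adjusted p = 0.376, or 0.00411 without Marco-IBA+ segments) and -0.59 after each segment was re-centred on its median (adjusted p = 0.000772). It also passed in edgeR (-0.24, adjusted p = 0.0420), the mixed model (-0.48), and on single segments with the ROI as a block (-0.46, adjusted p = 0.000266). The mixed model and the ROI block count segments of 1 liver as replicates, so their p-values do not measure the spread between livers. Of 19 alternatives 7 passed, and no limma fit that left out a liver did (adjusted p = 0.0722 to 0.539). In MarcoHi ROIs alone the Des+ to Else difference was -0.57 (adjusted p = 0.0101), against -0.0088 in MarcoLo ROIs alone. Alcam had been chosen in part from the contrast of ROI classes within Des+ segments, so this split is not a separate test. Subtracting 1 count from every value left the Marco+IBA+ to Else difference at -1.06 (adjusted p = 0.235, or 0.000186 without Marco-IBA+ segments).

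**Figure D1:**
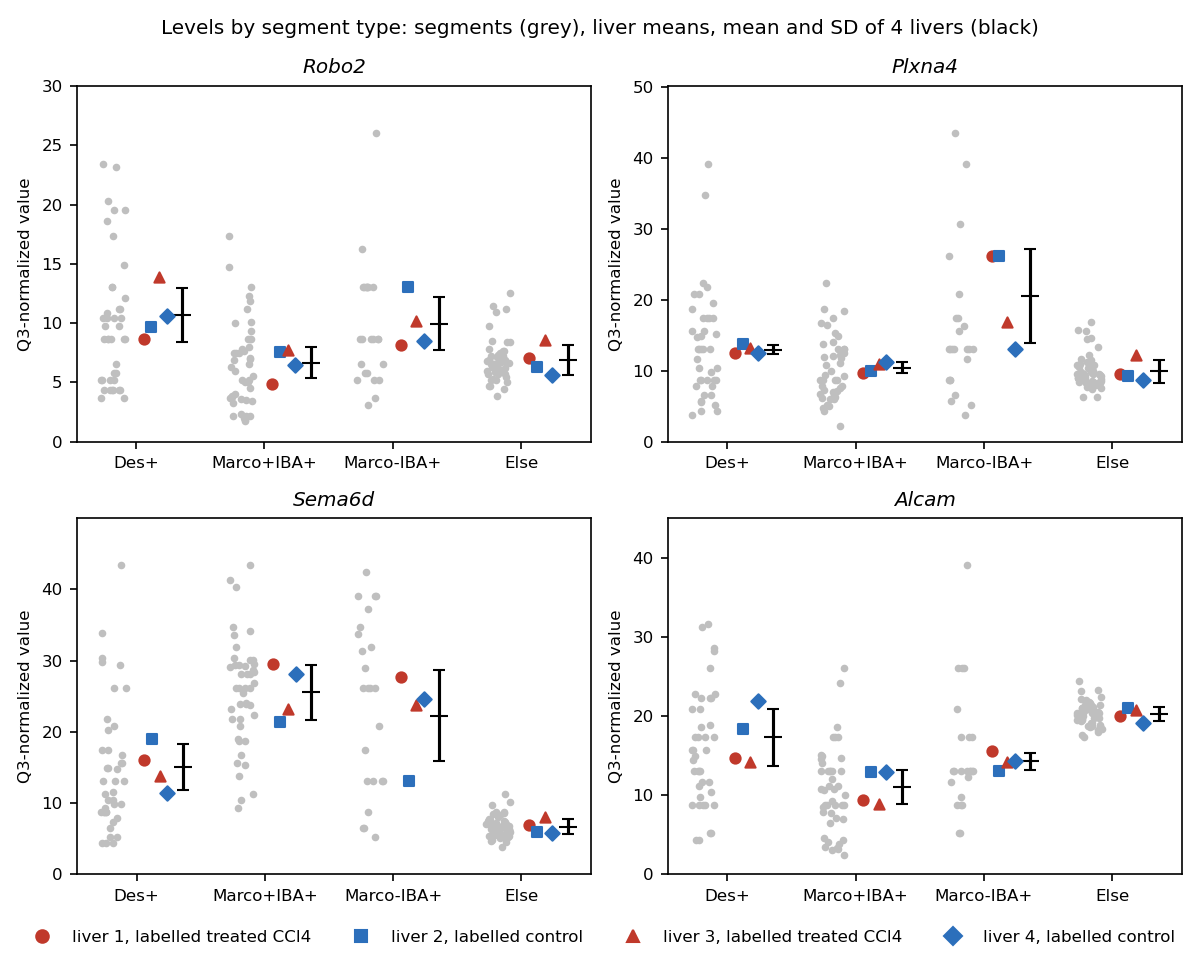
Q3-normalized value of each gene (vertical axis, linear) by segment type, with single segments in grey, the 4 liver means as coloured symbols and their mean and SD in black. Sema6d liver means are 21.3 to 29.5 in Marco+IBA+ and 5.82 to 8.08 in Else, while Alcam liver means are 8.93 to 12.9 in Marco+IBA+ and 19.2 to 21.1 in Else.

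Robo2 stood at low counts outside Else. Its liver means were 8.63, 9.67, 13.9 and 10.6 in Des+ segments, 4.89, 7.59, 7.71 and 6.45 in Marco+IBA+ and 7.07, 6.31, 8.56 and 5.67 in Else. Each Des+ mean exceeded the Else mean of its own liver. The log2 difference was 0.56 ± 0.15 against Else (adjusted p = 0.00283, 30 of 41 ROIs) and 0.61 ± 0.15 against Marco+IBA+ (adjusted p = 0.0019, 25 of 37 ROIs). These rested on a median of 2 counts per Des+ segment, with 15 of 41 at the lowest count. The difference from Else was -0.084 after 1 count was subtracted (adjusted p = 0.862), 0.25 with counts of 1 set to 0 (adjusted p = 0.678), and 0.22 after re-centring, none of which passed the threshold. The difference from Marco+IBA+ was then 0.33, 0.39 and 0.43, of which the re-centred one passed. In MarcoHi ROIs alone both calls were lost (0.34 with adjusted p = 0.0977 against Else and 0.42 with adjusted p = 0.0514 against Marco+IBA+), while MarcoLo ROIs alone gave 0.70 and 0.73, which passed. The contrast of ROI classes within Des+ segments had served to choose Robo2, so this split is not a separate test.

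Plxna4 did not pass the threshold in limma between Des+, Marco+IBA+ and Else segments, and its calls turned on the setting. It rested on a median of 3 counts per Des+ segment, with 10 of 41 at the lowest count. Its liver means were 12.4, 13.8, 13.1 and 12.6 in Des+ segments, 9.63, 9.90, 10.9 and 11.2 in Marco+IBA+ and 9.48, 9.18, 12.2 and 8.72 in Else. Des+ was the highest of these in every liver, and the log2 difference was 0.37 ± 0.17 from Else (adjusted p = 0.0667) and 0.29 ± 0.17 from Marco+IBA+ (adjusted p = 0.161). Both passed when Marco-IBA+ segments were left out of the fit (adjusted p = 0.00469 and 0.0222) and with the ROI as a replicate block on single segments (0.0452 and 0.0194), at 0.26 and 0.32 in the latter. That fit counts segments of 1 liver as replicates, so its p-values do not measure the spread between livers. Both differences also passed in edgeR (0.36 with adjusted p = 0.00290 and 0.29 with adjusted p = 0.0410). In MarcoHi ROIs alone they were 0.63 (adjusted p = 0.0466) and 0.70 (adjusted p = 0.0319), and in MarcoLo ROIs alone 0.033 and -0.17, a contrast within Des+ segments that had served to choose the gene. Between Marco+IBA+ and Else the difference was 0.075 ± 0.17 (adjusted p = 0.765). After subtraction of 1 count the Des+ to Else difference was -0.11.

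Values of Marco-IBA+ segments were set largely by the lowest count. Of the 24 segments, 21 stood at 1 count for Robo2, 13 for Plxna4, 10 for Alcam and 8 for Sema6d. In limma 4 of the 4 genes differed between Marco-IBA+ and Else, by 1.56 ± 0.19 (Sema6d), 0.94 ± 0.17 (Plxna4), 0.46 ± 0.15 (Robo2) and -0.48 ± 0.15 (Alcam) on the log2 scale, in a comparison where 73.5% of all genes passed and the median gene differed by 0.39. After subtracting 1 count, these became 0.23, 0.030, -2.31 and -2.22, so that Robo2 changed sign. Plxna4 and Sema6d were lower in Des+ than Marco-IBA+ segments by log2 differences of -0.57 ± 0.17 and -0.51 ± 0.19 (47.0% of genes passed). Plxna4 and Robo2 were lower in Marco+IBA+ than Marco-IBA+ by -0.86 ± 0.17 and -0.51 ± 0.15 (45.6% passed). After subtracting 1 count these were -0.14, 0.43, -0.18 and 1.90, in the same order. In limma the Des+ to Marco-IBA+ call was lost without liver 1 for both genes (-0.42 for Plxna4 and -0.43 for Sema6d), without liver 2 for Plxna4 (-0.47), and without liver 3 or 4 for Sema6d (-0.43 and -0.33). The Robo2 call against Else was lost without liver 2 (0.30). In edgeR the Marco+IBA+ to Marco-IBA+ calls were lost (-0.29 for Plxna4 with adjusted p = 0.337 and -0.093 for Robo2 with adjusted p = 0.883), as they were in MarcoLo ROIs alone (-0.44 and -0.16). For Plxna4 in Des+ against Marco-IBA+, edgeR gave -0.0032 (adjusted p = 0.991), the mixed model -0.15, the ROI as a block -0.16 and MarcoHi ROIs alone -0.29, none of which passed, and Sema6d did not pass in MarcoLo ROIs alone (-0.38). Against Else, edgeR lost the calls of Plxna4 (0.37, adjusted p = 0.131) and Robo2 (0.026, adjusted p = 0.970), re-centring that of Robo2 (0.31), MarcoLo ROIs alone that of Robo2 (0.13) and MarcoHi ROIs alone that of Alcam (-0.19).

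**Figure D2:**
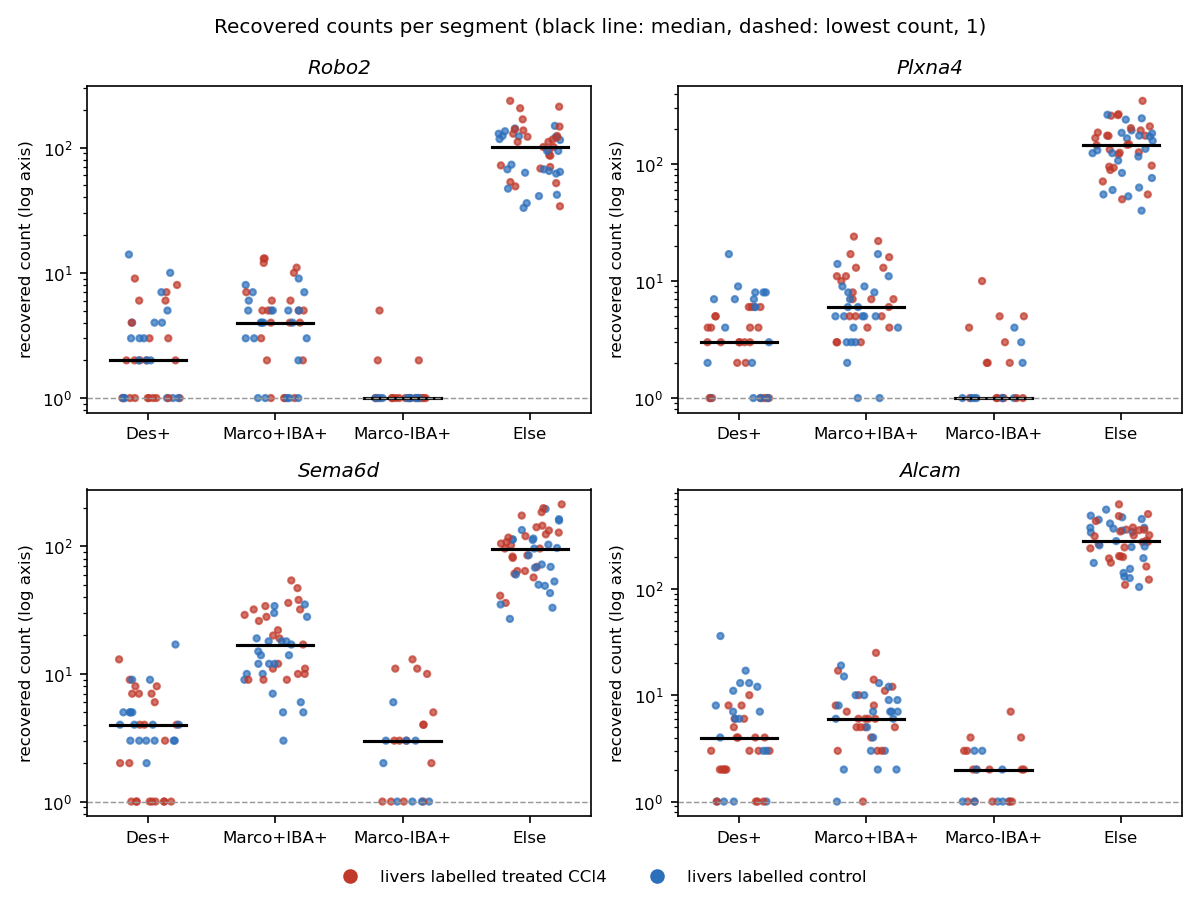
Recovered count of each gene per segment (vertical axis, log scale) by segment type, coloured by the label of the liver, with the median as a black line and the lowest count, 1, dashed. In Marco-IBA+ segments 21 of 24 values of Robo2 lie on the dashed line, whereas Else values of Alcam lie between 104 and 622.

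**Figure D3:**
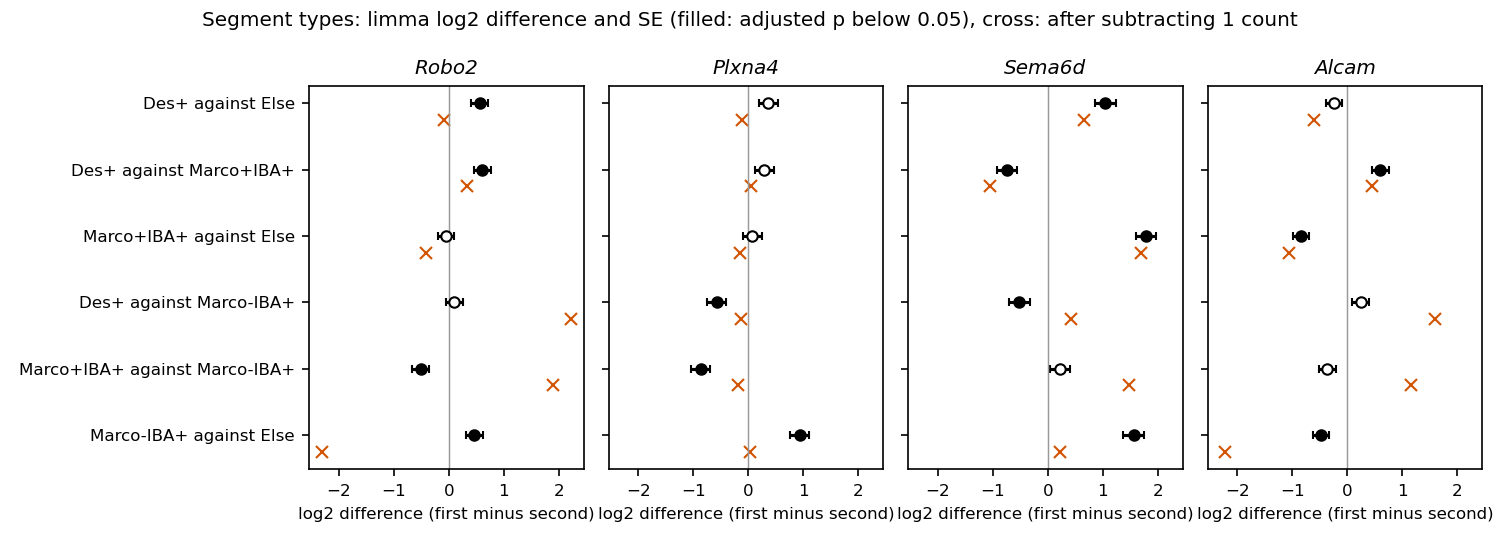
Log2 difference between segment types (horizontal axis, first minus second) for the 4 genes, as limma estimate with SE, filled where the adjusted p passed, and as a cross after 1 count was subtracted from every value. For Sema6d in Marco+IBA+ against Else the values are 1.79 and 1.71, and for Robo2 in Marco-IBA+ against Else they are 0.46 and -2.31.

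The ROI classes addressed whether cells differ near MARCO-rich macrophages. In Des+ segments, from which the genes were in part chosen, Plxna4 means in livers 1 to 4 were 17.0, 15.4, 16.1 and 15.2 in MarcoHi and 7.89, 12.2, 10.1 and 9.93 in MarcoLo ROIs. MarcoHi was higher in 4 of 4 livers, on a sum of 20 to 36 counts per liver against 11 to 26. The log2 difference was 0.63 ± 0.29 (SD, n = 4 livers), 0.82 in the livers labelled treated CCl4 and 0.44 in those labelled control. After subtraction of 1 count it was 0.66 over the livers and -0.048 in liver 2. Of the 607 genes, 9.56% were higher in MarcoHi in 4 of 4 livers and 12.9% were lower, without subtraction.

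Robo2 and Alcam were mostly lower in Des+ segments of MarcoHi ROIs. Robo2 means were 9.07, 8.40, 11.7 and 5.78 in MarcoHi and 8.18, 10.9, 16.1 and 15.5 in MarcoLo ROIs, with a log2 difference of -0.48 ± 0.59 (SD, n = 4). Alcam means were 15.1, 9.27, 12.6 and 18.4 against 14.3, 27.5, 15.9 and 25.5, with a difference of -0.54 ± 0.66 (SD, n = 4). In both, liver 1 was the exception and the classes overlapped. Without liver 4 the Robo2 difference was -0.21, and without liver 2 the Alcam difference was -0.23. With 1 count subtracted, both were lower in MarcoHi in 4 of 4 livers (mean -1.07 and -0.97). The share of all genes was not counted in that setting. There 1 count was worth a median value of 4.35 in MarcoHi and 3.08 in MarcoLo segments, so subtraction took more from MarcoHi values at the median. Without subtraction, the Alcam pair means were -0.13 (treated CCl4 label) and -0.96 (control label). Liver 2, with 13 counts over its 6 MarcoHi segments, had the largest difference at -1.47. Sema6d differed by -0.20 ± 0.31 (SD, n = 4), lower in 3 of 4 livers, and by -0.33 without liver 2 and -0.086 without liver 4. With 1 count subtracted it was -0.49 and lower in MarcoHi in 4 of 4 livers. Setting counts of 1 to 0 gave -0.38, with liver 2 higher in MarcoHi (0.19).

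Other measures moved with this contrast. The summed level of 14 HSC markers in Des+ segments was 432 to 602 in MarcoHi and 731 to 853 in MarcoLo ROIs, without overlap, and Marco was 8.84 to 34.1 against 4.71 to 11.8. The total count had a median of 3089 in MarcoHi and 4602.5 in MarcoLo Des+ segments, and 20.4% against 9.39% of genes stood at 1 count in the median segment. Their part in the differences was not tested.

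In Marco+IBA+ segments, Sema6d was higher in MarcoHi than MarcoLo ROIs of every liver, with means of 32.1, 24.9, 27.6 and 28.4 against 26.8, 17.8, 18.7 and 27.9. In liver 4 the classes were nearly level. The log2 difference was 0.32 ± 0.13 (SE), with adjusted p = 0.437 in limma, where 0.988% of genes passed. Alcam was lower in MarcoHi in 4 of 4 livers, at 8.92, 8.39, 7.45 and 10.9 against 9.95, 17.4, 10.4 and 14.9, a log2 difference of -0.49 ± 0.15 (adjusted p = 0.296). How many of all genes kept 1 direction in 4 of 4 livers was counted in Des+ segments only. Robo2 and Plxna4 differed by -0.16 ± 0.14 and -0.24 ± 0.15 and did not pass. None of the 4 genes passed in limma. At an unadjusted p below 0.05 there were 2 (Alcam 0.0133 and Sema6d 0.0432), among 67 of the 607 genes. On recovered counts edgeR called these 2 among 31 genes, and the linear mixed model on single segments called Sema6d among 33. The summed HSC markers were 187 to 214 in MarcoHi and 228 to 312 in MarcoLo Marco+IBA+ segments, without overlap, and their part in these values was not tested.

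In Else segments, where counts were deepest, the ROI classes were close for all 4 genes. Alcam differed by 0.014 ± 0.031 on the log2 scale (SE), Sema6d by -0.031 ± 0.037, Plxna4 by 0.036 ± 0.044 and Robo2 by -0.12 ± 0.041. Robo2 was lower in MarcoHi in 4 of 4 livers (7.01, 5.91, 8.30 and 5.14 against 7.13, 6.71, 8.81 and 6.19), with unadjusted p = 0.0205 and adjusted p = 0.189 in limma. The share of all genes with 1 direction in 4 of 4 livers was not counted in Else. None of the 4 genes passed in limma, edgeR or the mixed model, where limma called 1.65% of all genes. A test of whether the ROI difference itself differed between Marco+IBA+ and Else gave 0.35 ± 0.19 for Sema6d (adjusted p = 0.672) and -0.51 ± 0.19 for Alcam (adjusted p = 0.67).

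**Figure D4:**
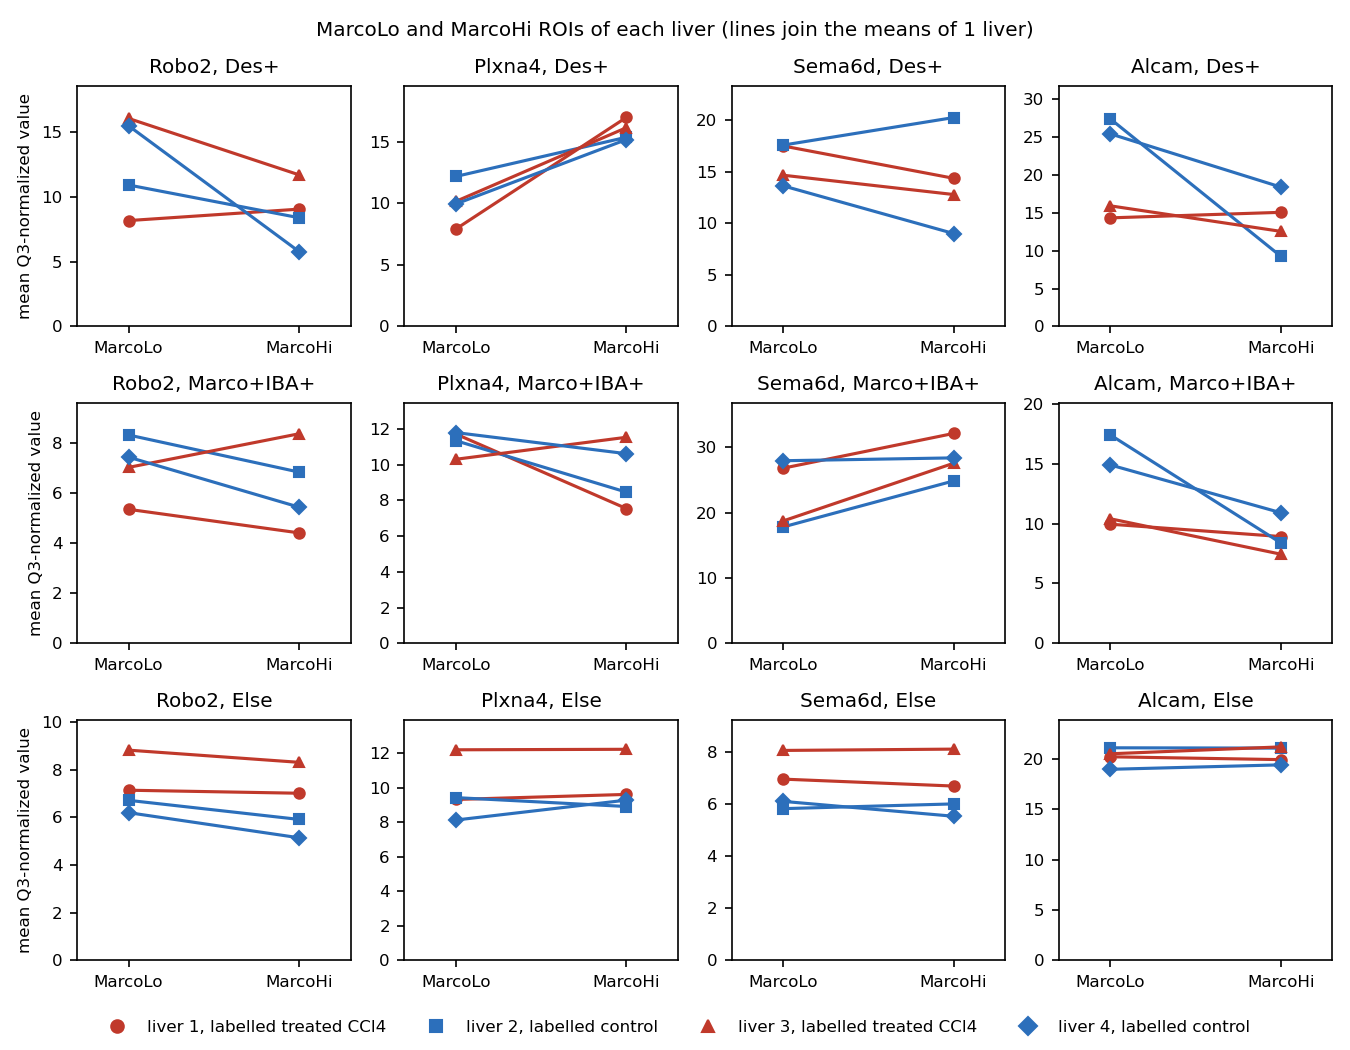
Mean Q3-normalized value (vertical axis, linear) in MarcoLo and MarcoHi ROIs of each liver, for 3 segment types (rows) and the 4 genes (columns), with a line joining the means of 1 liver. Plxna4 in Des+ and Sema6d in Marco+IBA+ segments are higher in MarcoHi in 4 of 4 livers, and Alcam in Marco+IBA+ segments is lower in 4 of 4. In Des+ segments 9.56% of the 607 genes are higher in 4 of 4 livers and 12.9% lower, a share not counted in the other types.

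Between labels, 0 of the 4 genes passed in limma in any of 3 segment types, with 2 livers against 2. In Des+ segments the log2 difference, treated CCl4 minus control, was -0.45 ± 0.22 for Alcam (14.7 and 14.2 against 18.4 and 21.9), 0.10 ± 0.24 for Robo2, -0.038 ± 0.21 for Plxna4 and 0.012 ± 0.25 for Sema6d. All genes gave 0.0% passing there (32 genes at an unadjusted p below 0.05, 1 gene in edgeR and 0 in the mixed model). In Marco+IBA+ segments Alcam was again lower under the treated CCl4 label (9.43 and 8.93 against 12.9 and 12.9). The difference was -0.45 ± 0.16 (unadjusted p = 0.0143, adjusted p = 0.254), where 0.659% of genes passed and 70 of 607 had an unadjusted p below 0.05. The other 3 genes differed by at most 0.16 in size.

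In Else segments the order was different. Sema6d was higher in both livers labelled treated CCl4 (6.82 and 8.08 against 5.91 and 5.82), as was Robo2 (7.07 and 8.56 against 6.31 and 5.67) and Plxna4 (9.48 and 12.2 against 9.18 and 8.72), whereas Alcam overlapped. The log2 differences of Sema6d, Robo2 and Plxna4 were 0.30 ± 0.10, 0.33 ± 0.11 and 0.24 ± 0.12 (adjusted p = 0.197, 0.197 and 0.251 in limma), and the median gene differed by 0.11. Of all genes 0.0% passed (140 at an unadjusted p below 0.05, 0 in edgeR, 45 in the mixed model). Without liver 1 these 3 genes passed (94 genes in all), a fit in which liver 3 alone stood for its label and was assumed to vary like the others. Liver 3 had the highest Else value of each of these 3 genes. Marco was higher under the treated CCl4 label in Marco+IBA+ segments (759 and 958 against 169 and 189), and its part in these values was not tested.

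Among the other guidance and adhesion genes of the table, 12 were measured (Dpysl2, Plxnb2, Ntn1, Vcam1, Cdh2, Pcdh7, Itga1, Itga8, Itga9, Itgb1, Itgb3 and Itgb5), and the ephrin list had 0. Against Else, 6 of these 12 were higher and 1 lower in Des+ segments, where 64.9% of all genes passed. Ntn1, the guidance cue netrin, was higher by 1.21 ± 0.18 on the log2 scale. Dpysl2, which relays semaphorin signals to microtubules, was higher by 1.25 ± 0.16, and Itga8, an integrin chain typical of HSCs, also by 1.25. Plxnb2, a semaphorin receptor of another plexin class, was lower by a difference of -0.66 ± 0.17. The median of the 6 integrins was 0.62 beside 0.062 for all genes, and 3 of the 6 passed. Itgb3 (0.41), Itgb1 (0.19) and Itgb5 (0.028) did not pass.

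In Marco+IBA+ against Else, 5 of the 12 were higher and 1 lower (Cdh2, a cadherin, -0.88 ± 0.17), where 40.2% of all genes passed. Vcam1, which holds leukocytes to other cells, was higher by 2.26 ± 0.16, and Itga9, an integrin chain that binds Vcam1, by 1.53 ± 0.18. None of the 12 passed between ROI classes in Marco+IBA+ or Else segments or between labels in limma.

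Over the 31 means of liver, ROI class and segment type, the genes closest to Sema6d in level were Zeb2 (Pearson r = 0.89), Vcam1 (0.88) and Flna (0.88). Those closest to Alcam were Nr1h4 (0.73), the bile acid receptor of hepatocytes, Arhgap42 (0.70) and Plekha6 (0.70). Robo2 was closest to Nkd1 (0.83), Serpinh1 (0.81), the collagen chaperone, and Gem (0.80), and Plxna4 to Peak1 (0.78), Tspan3 (0.74) and Rcn2 (0.73). Among the 4 genes, Sema6d and Alcam ran most against each other (r = -0.63), and Robo2 and Plxna4 had r = 0.32. These means share livers, depth and the Q3 scale, so the correlations are descriptions.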

How the data were processed

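The authors hybridized a whole-transcriptome probe panel to fixed sections, sequenced the probe barcodes of each segment (bcl2fastq 2.20.0.422 per the labels), removed duplicates by molecular identifier and applied quality filters. Per the methods, genes were limited to those found mainly in HSCs in other single-cell data, which bears on every comparison with Des+ segments. The deposited signal values are Q3-normalized counts of 607 genes in 159 segments. Dividing each segment's values by its smallest step gave whole counts for 96513 of 96513 values (relative tolerance 1e-06). Negative control probes were not used here. Levels were not compared between genes.

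Segment values were averaged per liver and ROI class, then over the classes, and log2(mean + 1) was tested, with 1 as the pseudocount. limma 3.58.1 (R 4.3.3) was fitted over all genes with the liver as a block, since segment types and ROI classes came from the same animals (labels: no block), with Benjamini-Hochberg adjustment and a threshold of 0.05. Fold changes on this scale understate changes of low values. The alternatives were a pseudocount of 5, means of log2 values, re-centring, a mean recovered count of at least 10, edgeR 4.0.16, a linear mixed model (lmerTest 3.1.3), no block, the ROI as block, each ROI class alone, leaving out a ROI without a class in its library name, and leaving out each liver. The mixed model and the ROI block used single segments, so their p-values for segment types and ROI classes do not measure spread between livers. In comparisons with Des+ segments, each ROI class alone reuses the contrast from which the genes were in part chosen, and is not a separate test. Subtracting 1 count, setting counts of 1 to 0, and leaving out Marco-IBA+ segments were added after seeing the data. The fits were tested on simulated data.

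The 4 genes, the lists and the rules were chosen with earlier results of these data known. Named were the 4 genes in every comparison, the 3 genes most correlated with each, and guidance or adhesion genes that are a partner of a member or among the 2 highest or 2 lowest differences of their list in Des+ against Else, of which those shown were chosen after their values were seen.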

Additional observations from a re-analysis of the deposited data

Results flagged for a closer look

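Robo2 in Marco+IBA+ minus Else segments went opposite ways under the labels, lower in both livers labelled treated CCl4 (pair mean -0.29 on the log2 scale) and higher in both labelled control (pair mean 0.20). The limma test of the difference between labels gave -0.49 ± 0.17 (SE), adjusted p = 0.236. How many of all genes went opposite ways under the labels was not counted. Over the 16 sets of 4 liver means (4 genes in 4 segment types), no liver stood apart from the other three by Dixon's criterion, which chance exceeds in about 1 of 20 sets.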

How the results depend on the processing

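Sema6d higher and Alcam lower in Marco+IBA+ than Else segments kept their direction in every alternative run. Genes called, with the main count in parentheses, moved by over 1.5 times as follows. Subtracting 1 count gave 205 (394) for Des+ against Else, 130 (320) for Des+ against Marco+IBA+, 100 (244) for Marco+IBA+ against Else, 1 (6) for ROI classes in Marco+IBA+ and 2 (4) for labels in Marco+IBA+, and setting counts of 1 to 0 gave 157, 83, 106, 101 (277) for Marco+IBA+ against Marco-IBA+ and 3 for ROI classes in Marco+IBA+. The filter on low values gave 128 for Des+ against Marco+IBA+, 45 (285) for Des+ against Marco-IBA+, 59 for Marco+IBA+ against Marco-IBA+ and 15 for labels in Marco+IBA+. MarcoHi ROIs alone gave 120 for Des+ against Marco-IBA+ and 1 (0), 2 and 1 (0) for labels in Des+, Marco+IBA+ and Else. MarcoLo ROIs alone gave 63 for Marco+IBA+ against Marco-IBA+ and 1 for labels in Marco+IBA+. edgeR gave 389 for Marco+IBA+ against Else, 140 for Marco+IBA+ against Marco-IBA+, 31 and 30 (10) for ROI classes in Marco+IBA+ and Else, and 1 and 13 for labels in Des+ and Marco+IBA+. The mixed model gave 33 and 83 for those ROI classes and 12 and 45 for labels in Marco+IBA+ and Else. For ROI classes in Else, a pseudocount of 5 gave 35, means of log2 values 25 and re-centring 26. For labels in Marco+IBA+ a pseudocount of 5 gave 14 and re-centring 7, and for labels in Else re-centring gave 1. Without the replicate block of livers, ROI classes had 3 genes called in Marco+IBA+ and 0 in Else, and no call on the 4 genes changed. Leaving out livers gave 1 to 5 and 0 to 21 for ROI classes in Marco+IBA+ and Else, and 0 to 2, 1 to 3 and 0 to 94 for labels in Des+, Marco+IBA+ and Else. In these comparisons the cause was not tested.

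Log2 differences that changed sign, with the comparison's first group minus its second, were these. Subtracting 1 count gave -0.084 (Robo2) and -0.11 (Plxna4) in Des+ against Else, with or without Marco-IBA+ segments, -0.15 (Plxna4) in Marco+IBA+ against Else, 0.43 (Sema6d) in Des+ against Marco-IBA+, 1.90 (Robo2) and 1.16 (Alcam) in Marco+IBA+ against Marco-IBA+, -2.31 (Robo2) in Marco-IBA+ against Else, and for labels -0.20 (Robo2) and -0.16 (Sema6d) in Des+ and 0.024 (Plxna4) in Marco+IBA+. Setting counts of 1 to 0 gave 0.41 (Sema6d), 1.95 (Robo2), 0.89 (Alcam) and -2.09 (Robo2) in the same comparisons with Marco-IBA+, and -0.14 (Robo2) and -0.21 (Sema6d) for labels in Des+. Re-centring gave -0.091 (Robo2) in Des+ against Marco-IBA+, -0.11 (Plxna4) in Marco+IBA+ against Else and -0.11 (Alcam) for labels in Else. MarcoHi ROIs alone gave -0.32 (Robo2) and -0.37 (Alcam) in Des+ against Marco-IBA+, -0.072 (Plxna4) in Marco+IBA+ against Else, and for labels 0.11 (Plxna4), -0.0029 (Sema6d) and 0.064 (Alcam) in Des+ and 0.0037 (Robo2) in Marco+IBA+. MarcoLo ROIs alone gave -0.17 (Plxna4) in Des+ against Marco+IBA+, 0.20 (Alcam) in Marco+IBA+ against Marco-IBA+ and -0.16 (Robo2) for labels in Des+. For Plxna4 in Marco+IBA+ against Else, means of log2 values gave -0.0072, the mixed model -0.040 and the ROI as a replicate block -0.057. For labels, means of log2 values gave -0.11 (Sema6d in Des+) and 0.060 (Plxna4 in Marco+IBA+), the mixed model -0.10 and 0.15, and edgeR 0.11 (Plxna4 in Marco+IBA+) and -0.064 (Alcam in Else). edgeR gave 0.078 (Robo2) for ROI classes in Marco+IBA+. Leaving out each liver gave -0.0086 to 0.26 (Robo2, Des+ against Marco-IBA+), -0.14 to 0.087 (Robo2) and -0.010 to 0.15 (Plxna4) in Marco+IBA+ against Else, -0.0099 to 0.072 (Plxna4, ROI classes in Else), and for labels -0.21 to 0.42 (Robo2), -0.10 to 0.024 (Plxna4) and -0.33 to 0.36 (Sema6d) in Des+, -0.44 to 0.12 (Robo2), -0.12 to 0.047 (Plxna4) and -0.11 to 0.28 (Sema6d) in Marco+IBA+, and -0.042 to 0.088 (Alcam) in Else. The filter on low values left out all 4 genes in Des+ against Marco-IBA+ and for labels in Des+, and left Sema6d alone of the 4 in the other comparisons without Else segments. With counts of 1 to 4 in the median Des+ or Marco-IBA+ segment, depth limits the 4 genes there.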
